A study of Mus musculus with 369 samples.

Results

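Tmem119 is a membrane protein whose RNA marks microglia of the resting brain. The cells described here are single microglia labelled as Trem2 knockout that were sorted for Gpnmb and Clec7a on their surface, and they were separated by whether they held Tmem119 RNA. Both sets were chosen by the measured Tmem119 level itself: a cell with a Tmem119 level of at least 10 CPM (counts scaled to a fixed total of gene counts in each cell, the usual counts per 1e6) was called Tmem119-keeping, and a cell below 10 CPM was called Tmem119-losing. Of 76 passing cells on the plate, 33 were keeping and 43 were losing, out of 334 passing cells in the study. Tmem119 lies on chromosome 5, positions 113793729 to 113800516 on the minus strand of mm10 (ENSMUSG00000054675.5).

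The study sorted microglia from whole brains of male C57BL6J mice at postnatal day 7 and prepared deep Smart-seq2 libraries, in which each well of a 96-well plate gives the full-length transcripts of 1 cell. There were 4 plates: wild type unselected (78 passing cells), wild type gated (90), TREM2_KO unselected (90) and TREM2_KO gated (76). Unselected cells came from the CD45lowCD11b+ gate, and gated cells from the same gate with Gpnmb and Clec7a added. All 4 share strain, sex, age and tissue, no treatment is given, and the sources used here do not describe the knockout allele or name the animals behind each plate. Each group is therefore 1 sample with no replicate, so no test was made. A difference was called by size, at least 2-fold on the log2(CPM + 1) scale of counts summed over a set. The mean CPM per cell also had to go the same way. In the matched cells described below, the mean log2(CPM + 1) per cell had to do so instead, so the 2 rules differ. Intervals beside summed levels are exact Poisson intervals and those beside shares of cells are exact Clopper-Pearson intervals, both at 95%. PCR copies of 1 molecule were counted as separate reads, so the Poisson intervals are narrower than the true counting error. The intervals of shares take the cells of 1 plate as independent draws. Neither covers differences between animals, and the spread between cells is far wider than the Poisson intervals.

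Microglia take their identity from TGF-beta and Csf1 receptor signals, and in the undisturbed brain they carry the purine receptor P2ry12, the fractalkine receptor Cx3cr1 and Tmem119, together called homeostatic genes. Near plaques, demyelinated fibres and, in the first postnatal week, developing white matter, microglia take a phagocytic state in which homeostatic RNA is low and Spp1, Gpnmb, Clec7a, Apoe, lysosomal and lipid genes are high. Trem2 is a lipid receptor that signals through the adaptor Tyrobp and is known as a gate to the full form of this state in disease. Tmem119 is among the RNAs lost in that state, and the plate holds cells on both sides of the 10 CPM threshold. The names keeping and losing describe the measured level only, and whether a losing cell once held more Tmem119 RNA was not tested.

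Trem2, the targeted gene, had 400.9 CPM in the keeping cells and 421.9 CPM in the losing cells, against 229.1 CPM in the unselected knockout plate. The same gene had 1498 and 1785 CPM in the keeping and losing cells of the wild-type gated plate and 1115 CPM in the wild-type unselected plate. Knockout levels were thus below both wild-type plates, but counts per gene do not show which exons were read, so the remaining Trem2 RNA does not check whether the receptor was made. Its level was close in both sets (log2 of losing over keeping 0.07).

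The Tmem119 level chose the members, so it is given as a description only. In the keeping cells Tmem119 ran from 11.08 to 3101 CPM with a median of 165.7 CPM. In the losing cells it ran from 0 to 6.179 CPM with a median of 0, and 33 of 43 cells had 0 counts. The cells just inside the threshold had 11.08 CPM and 17.5 CPM, and those just outside had 6.18 CPM and 5.88 CPM, so few cells lay near it. Summed over cells, Tmem119 was at 257.5 CPM (250.7 to 264.3) in the keeping set and 0.80 CPM (0.50 to 1.19) in the losing set, and at 2107 CPM in the unselected knockout plate. Keeping cells as a set thus also held far less Tmem119 RNA than unselected cells.

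By the same rule, keeping cells made up 92.31% (84.01 to 97.12) of the wild-type unselected plate, 62.22% (51.38 to 72.23) of the wild-type gated plate, 88.89% (80.51 to 94.54) of the knockout unselected plate and 43.42% (32.08 to 55.29) of the knockout gated plate. The losing share was thus larger on each gated plate than on the unselected plate of the same genotype.

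A cell with few detected genes can miss a gene, so the number of genes with at least 1 count was set beside the split. Keeping cells had a median of 4170 detected genes (1678 to 7971) and losing cells 3896 (1260 to 8127). The median gene count per cell was 684576 in keeping and 708348 in losing cells, and gene counts per spike-in count had medians of 53.67 and 53.77. After thinning every cell to 100000 gene counts the medians of detected genes were 3796 and 3400. Of the cells with 1260 to 3491 detected genes 12 of 26 kept Tmem119, of those with 3529 to 4780 genes 8 of 25 did, and of those with 4916 to 8127 genes 13 of 25 did. Losing cells were thus found at every level of detection, as the plot of Tmem119 against detected genes shows. By position on the plate, 16 of 38 cells in columns 1 to 6 and 17 of 38 in columns 7 to 12 were keeping, and 20 of 43 cells in rows A to D and 13 of 33 in rows E to H were.

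**Figure D1:**
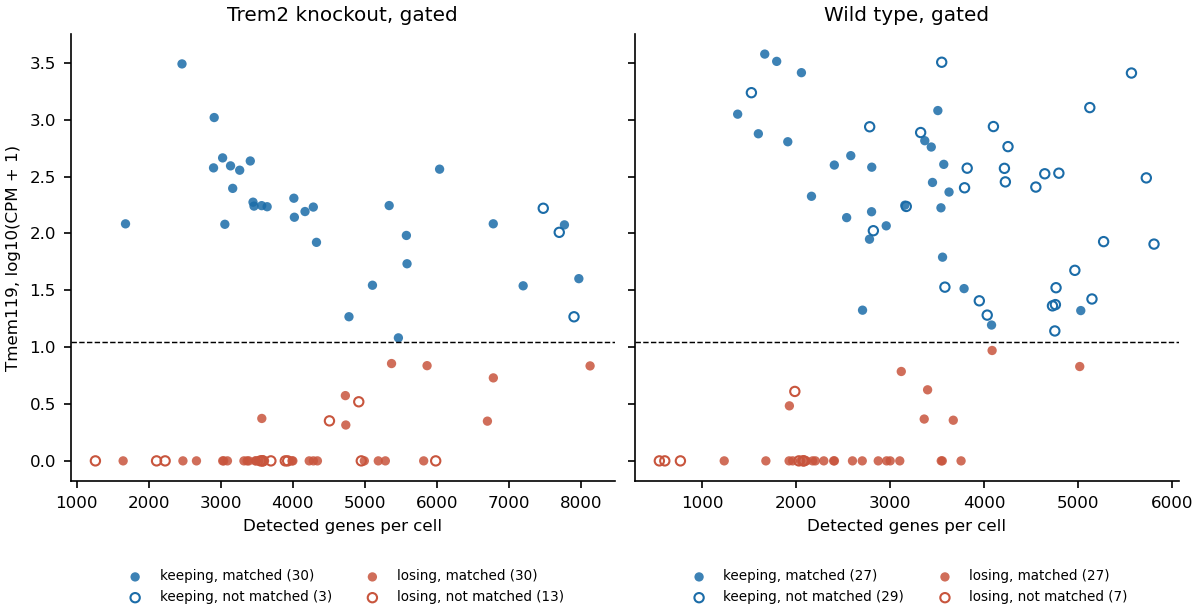
Tmem119 level of each cell, as log10(CPM + 1), against its number of detected genes, for the 76 gated knockout cells and the 90 gated wild-type cells; each point is a cell, the dashed line is the 10 CPM threshold, and filled points are cells in the matched sets. Losing knockout cells lie along the whole range of detected genes from 1260 to 8127, whereas losing wild-type cells have fewer detected genes (median 2345.5) than keeping wild-type cells (median 3562.5).

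To hold detection even, 30 keeping cells were paired with 30 losing cells whose detected genes differed by at most 0.15 on the natural log scale. The medians were then 4018.5 and 3995 detected genes. Differences are given over all cells and, where marked as matched, over these 60 cells. On the wild-type gated plate 27 pairs were made in the same way.

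A few cells stand apart and are described before the gene groups. The losing cells in wells C12 and G3 had 0 counts of Tmem119, P2ry12, Sall1, Siglech, Sparc, Olfml3, Spp1 and Gpnmb. They held Mrc1 at 1114 and 1827 CPM, Lyve1 at 4924 and 2309 CPM and F13a1 at 2566 and 3651 CPM, all markers of border-associated macrophages, the macrophages of the meninges and perivascular spaces. Both had Clec7a RNA (311.7 and 407.7 CPM), and they were the only losing cells with 0 Gpnmb counts. On the keeping side, the cells with the most Tmem119, in wells H3 and B6 (3101 and 1046 CPM), had P2ry12 at 7628 and 4724 CPM, Spp1 at 7036 and 2467 CPM, 0 counts of Clec7a and Gpnmb at 2565 and 491.7 CPM. For some homeostatic genes the log2 without H3 and B6 is also given below. A gene given without that value is not thereby unaffected by these cells.

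The labelled cell type was checked against microglial markers. After thinning, Csf1r was detected in every cell of both sets, and Cx3cr1 in 100% of keeping and 97.67% of losing cells. Sall1, a transcription factor that among brain macrophages marks microglia, was detected in 90.91% and 69.77% of cells. Of 9 neutrophil markers, 9 neuronal markers and 10 endothelial and mural markers, 0 reached the level of 5 CPM in either set that was required for a gene to count as measured. Of 10 monocyte markers 2 were measured, of 9 lymphocyte markers 1, of 12 oligodendrocyte lineage markers 3, of 10 astrocyte markers 2 and of 5 red cell markers 0.

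Most homeostatic genes other than Tmem119 lay slightly lower in losing cells, but few passed 2-fold, and the core receptor genes Cx3cr1 and Csf1r were at almost the same level in both sets. Of 25 measured members, 20 lay below 0 in log2 of losing over keeping, where 48.1% of all 9501 measured genes did, and 18 of 25 did so in matched cells, against 48.2%. Only 2 members, Sparc and Ecscr, were at least 2-fold lower, where 10.9% of all measured genes were, and 1 member, Slc2a5, was at least 2-fold higher, where 13.5% were. In matched cells 3 members were lower and 1 was higher, against 12% and 13.9% of all genes. By this threshold the list's share was close to the background. The median of the list was -0.33, and -0.23 in matched cells, against 0.03 for all genes. Without the cells in wells H3 and B6 the list's median was -0.08, against 0.04 for all genes. The size of the shift in summed levels thus rested largely on those 2 keeping cells. As a difference of mean log2(CPM + 1) per cell, with detected genes as a covariate, the list's median was -0.56, against -0.03 for all genes. In matched cells that difference had a median of -0.34, against -0.03. These per-cell measures were not taken without H3 and B6.

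Sparc encodes a secreted matricellular protein that is high in resting microglia. It ran from 190.4 to 5059 CPM in keeping cells (median 1482) and from 0 to 2788 CPM in losing cells (median 486.7), so the sets overlapped widely while the losing cells were lower in their centre. Summed over cells it stood at 1573 CPM (1556 to 1590) and 679 CPM (669.6 to 688.6), a log2 of -1.21, and of -1.14 in matched cells. After thinning it was detected in 100% of keeping cells (89.42 to 100) and in 86.05% of losing cells (72.07 to 94.7). The difference did not rest on the cells that stand apart: it was -1.13 without H3 and B6 and -1.19 without the cells with border-associated macrophage markers. In the unselected knockout plate Sparc was at 3379 CPM.

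Selplg, which encodes the selectin ligand PSGL-1, ran from 0 to 1607 CPM in keeping cells (median 177.8) and from 0 to 720.1 CPM in losing cells (median 120.1). Its summed levels were 296.8 and 150.4 CPM, a log2 of -0.98, just under 2-fold, and of -0.99 in matched cells and -0.72 without H3 and B6. P2ry12, the ADP receptor that steers microglial processes, had medians of 621.4 CPM (0 to 7628) in keeping and 345.2 CPM (0 to 4872) in losing cells. Its summed levels were 953.6 and 560.5 CPM, a log2 of -0.77, but only -0.28 without H3 and B6. The paired receptor gene P2ry13 was at 997.8 and 685.4 CPM (log2 -0.54, and -0.31 without H3 and B6). Both purine receptor genes were far lower in either set than in the unselected knockout plate, where P2ry12 was at 5418 CPM and P2ry13 at 2257 CPM.

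Cst3, which encodes the secreted protease inhibitor cystatin C, differed by less but with little spread. It ran from 1920 to 7304 CPM in keeping cells (median 3129) and from 1314 to 5192 CPM in losing cells (median 2674), a log2 of -0.38 in summed levels and -0.36 in matched cells. Golm1 (-0.37), Olfml3 (-0.30) and Slco2b1 (-0.48) lay in the same range, at -0.34, -0.27 and -0.43 without H3 and B6. Without those 2 cells Siglech went from -0.36 to -0.05, Lpcat2 from -0.33 to -0.01 and Crybb1 from -0.34 to 0.06. The differences of these genes in summed levels thus rested largely on those cells. Among the 16 settings, however, the lowest log2 was -1.30 for Siglech, -1.53 for Lpcat2 and -1.29 for Crybb1. Gpr56 was at -0.44, at -0.28 without those cells, and turned to 0.37 with a Tmem119 threshold of 1 CPM. Ecscr (log2 -1.07, from 38.64 to 17.85 CPM) had 49.2% of its keeping counts in 1 cell and came to 0 without H3 and B6.

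The fractalkine receptor gene Cx3cr1 was at 5582 CPM in keeping and 5323 CPM in losing cells (log2 -0.07; medians 5255 and 5026 CPM). Csf1r, the receptor on which microglial survival depends, was at 3831 and 3729 CPM (-0.04). Fcrls (-0.07), P2ry6 (-0.01, and 0.24 without H3 and B6), Gpr34 (0.03) and Tmem173 (-0.17) were also close to 0. Cd33 (0.33), Ltc4s (0.43) and 4632428N05Rik (0.17) lay above 0. Among the 16 settings 4632428N05Rik ran from -0.95 to 0.24 and Tmem173 from -0.52 to 0.49, while Cd33 and Ltc4s stayed above 0. Slc2a5, the microglial fructose transporter gene, was at 21.45 and 49.02 CPM (1.16), with 62.2% of the keeping counts and 35.6% of the losing counts in 1 cell each. Its log2 was 2.39 without H3 and B6 and -0.38 with a Tmem119 threshold of 1 CPM. The homeostatic genes thus differed unequally between the sets, as the plot of the members shows.

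**Figure D2:**
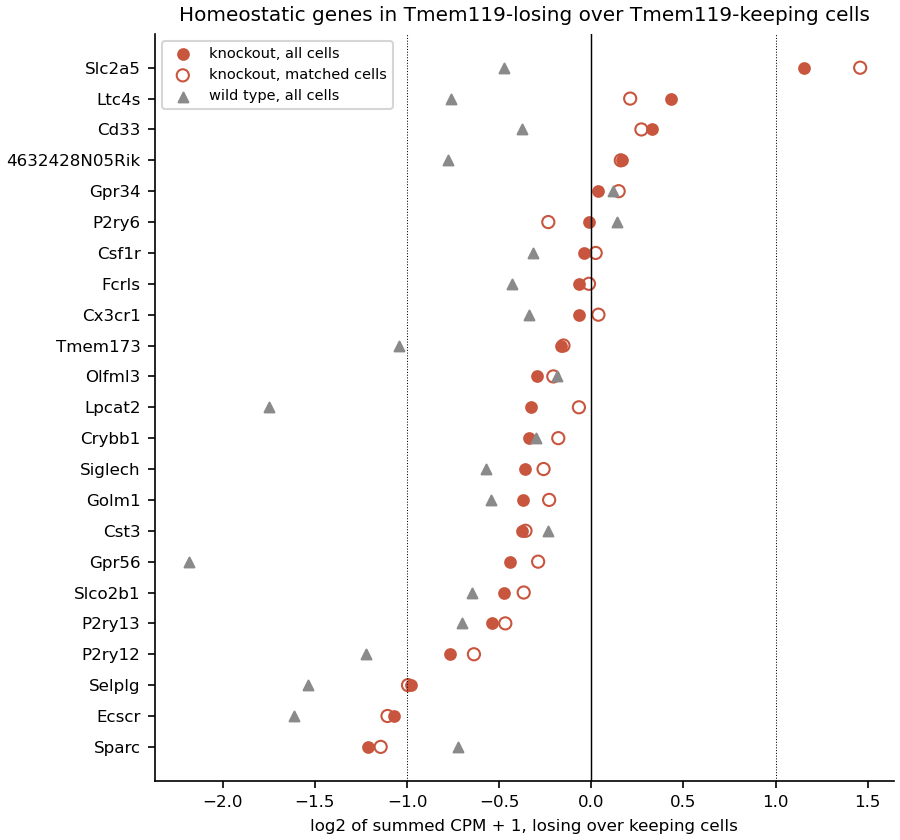
Measured homeostatic genes other than Tmem119 that are reported here, each as the log2 of summed CPM + 1 in losing over keeping cells; filled circles are all gated knockout cells, open circles the matched cells, triangles the gated wild-type cells split by the same rule, and dotted lines mark 2-fold. Sparc and Ecscr lie below -1 in the knockout, Cx3cr1 and Csf1r at about 0, and most members lie below 0 in the wild type.

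Microglial transcription factors showed little difference. Of 24 measured members 3 were at least 2-fold higher (13.5% of all measured genes) and 0 lower (10.9%), with a median of 0.15, and of -0.01 in matched cells. The members past 2-fold were Pparg (0 and 11.45 CPM), Egr1 (0 and 6.919 CPM) and Klf2 (11.3 and 29.37 CPM), all at low levels, with 72.8%, 56.5% and 53.8% of the losing counts in 1 cell. Sall1 was detected in fewer losing cells after thinning (69.77% against 90.91%), yet its summed level was 133.4 CPM in keeping and 144.7 CPM in losing cells (log2 0.12), so its detection and its level went opposite ways.

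In the TGF-beta pathway, which maintains homeostatic genes in microglia, 2 of 13 measured members were at least 2-fold higher (background 13.5%) and 0 lower (background 10.9%), with a median of -0.23 (matched -0.21). The higher members were Tgfbi, a secreted TGF-beta induced matrix protein gene (4.448 and 59.57 CPM), and Smad4, the common partner of receptor-activated Smads (1.992 and 27.02 CPM). Tgfbi was detected in 6.061% of keeping and 16.28% of losing cells, with 51.5% of the losing counts in 1 cell. Eng (log2 -0.94) and Smad3 (0.85) were the next members by size. Among Trem2 signalling genes 1 of 16 measured, Vav3 (1.714 and 17.78 CPM), was at least 2-fold higher and 0 lower, against the same background. The median was 0.05, and Tyrobp, the Trem2 adaptor gene, was at 1988 and 1886 CPM (log2 -0.08).

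Genes of the disease-associated state had a median difference near 0 between the sets. Of 30 measured members 1 was at least 2-fold higher (Ch25h, a cholesterol hydroxylase gene, 3.707 and 9.997 CPM) and 2 were lower (Ccl4, 21.91 and 4.635 CPM, and Cxcl16, 16.17 and 3.217 CPM, both chemokine genes). These 3 were at low levels and had 42% to 61% of the higher set's counts in 1 cell. The median was 0.02 (matched 0.03), with 16 members above and 14 below 0. Shares of members past 2-fold were thus below those over all genes, 13.5% higher and 10.9% lower.

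Spp1, which encodes the secreted phosphoprotein osteopontin, ran from 7.08 to 67080 CPM in keeping cells (median 29610) and from 0 to 61700 CPM in losing cells (median 28240), with a log2 of 0.03 in summed levels. Apoe, the main lipid carrier of the brain, was at 29180 and 30420 CPM (log2 0.06). Gpnmb, the membrane glycoprotein used in the sort, had medians of 4162 and 3432 CPM and a log2 of -0.19. The sets overlapped across nearly their whole ranges for each of these genes.

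Clec7a, the beta-glucan receptor gene used in the sort, was the member of this pair with more RNA in losing cells. It ran from 0 to 1861 CPM in keeping cells (median 366.4) and from 0 to 1924 CPM in losing cells (median 606.6), with summed levels of 503.1 CPM (493.6 to 512.6) and 661.2 CPM (651.9 to 670.7), a log2 of 0.39 in all and in matched cells. It had 0 counts in 5 of 33 keeping cells (15.15%, 5.109 to 31.9) and in 1 of 43 losing cells (2.326%, 0.05886 to 12.29). Ank, a pyrophosphate transport gene, was at 177.3 and 315.1 CPM (log2 0.83).

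**Figure D3:**
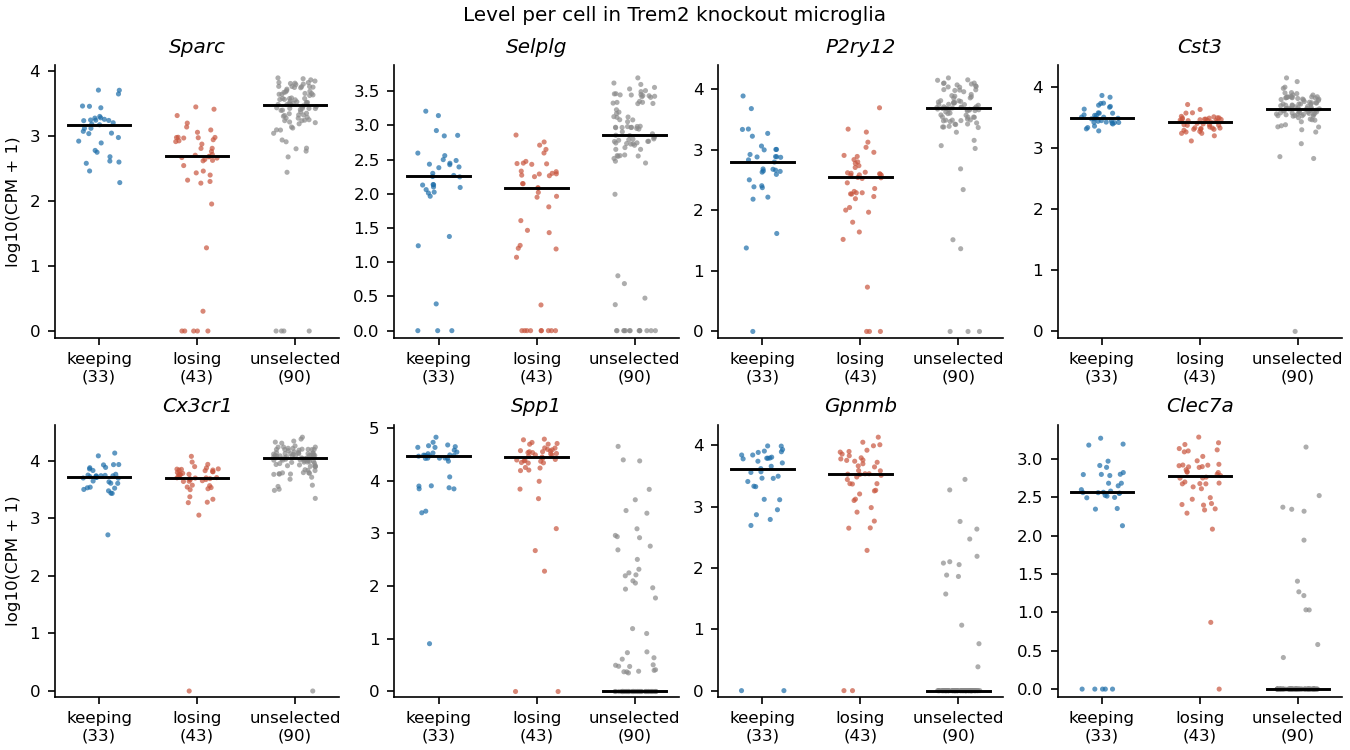
Level of 8 genes in each cell as log10(CPM + 1) for Tmem119-keeping (33) and Tmem119-losing (43) gated knockout cells and for the unselected knockout plate (90); points are cells and black lines are medians. Sparc is lower in losing than in keeping cells (medians 486.7 and 1482 CPM), whereas keeping and losing cells overlap throughout for Cx3cr1, Spp1 and Gpnmb.

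Both sets were set beside the unselected knockout plate, whose cells had fewer detected genes. The 2 comparisons share those 90 cells, and they differ in plate as well as in gate, which cannot be told apart. In keeping cells 18 of 26 measured homeostatic genes were at least 2-fold lower than in unselected cells (background 25.9%), with a median of -1.38, and in losing cells 18 of 26 were (background 24.9%), with a median of -1.94. In the disease-associated list 21 of 29 members exceeded 2-fold upward in keeping cells (background 11.5%; median 1.44) and 22 of 30 in losing cells (background 13%; median 1.48). Median log2 over all measured genes was -0.33 in keeping and -0.28 in losing cells. In log2 against unselected cells Spp1 was at 4.13 in keeping and 4.15 in losing cells, and P2ry12 at -2.50 and -3.27. Keeping Tmem119 RNA therefore did not set the keeping cells at the level of unselected cells in either list.

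Genes of lysosomes, respiration and translation did not separate the sets. None of 34 measured lysosomal genes, 29 respiratory chain genes or 30 ribosomal protein genes reached 2-fold in either direction over all or matched cells, with medians of 0.01, 0.05 and -0.01. With a minimum of 20 CPM, which leaves out the sparser genes, the counts over all genes were 580 higher and 473 lower in place of 1281 and 1033. In the lysosomal list the members farthest from 0 were Mcoln1, the lysosomal calcium channel gene (82.56 and 131 CPM, log2 0.66), and Npc1, the cholesterol exporter gene (101.1 and 67.18 CPM, -0.58).

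Lipid uptake and efflux genes had 4 members at least 2-fold higher (background 13.5%) and 1 lower (background 10.9%) of 22 measured, with a median of 0.20. Cd36, a fatty acid scavenger receptor gene, had 0 counts in the keeping cells and 40.2 CPM in the losing cells, at least 289.2-fold higher when the keeping set as a whole is taken at 3 counts. Of that, 71.9% lay in 1 cell, and the matched log2 was 0.41. Msr1, the class A scavenger receptor gene, was at 3.985 and 37.81 CPM (log2 2.96, matched 2.48), with 23.1% of the losing counts in 1 cell, and was detected after thinning in 15.15% and 23.26% of cells. Pltp, a phospholipid transfer protein gene, was at 17.93 and 55.59 CPM. Cholesterol synthesis genes went both ways, with 2 of 16 measured higher (Lss and Sqle), 3 lower (Insig1, Hsd17b7 and Mvd) and a median of -0.35 (matched -0.18).

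Against the same background of 13.5% higher and 10.9% lower, of 27 glycolysis and hypoxia genes 2 were higher (Ankrd37, 6.347 and 21.66 CPM, and Pfkp, 8.386 and 25.7 CPM) and 2 lower (Egln1, 14.41 and 2.456 CPM, and Ero1l, 40.08 and 17.88 CPM), with a median of 0.08. Secreted factor and matrix genes had 1 of 18 higher (Plau, 17.42 and 36.36 CPM) and 2 lower (Pdgfb, 26.46 and 6.123 CPM, and Thbs1, 7.181 and 1.799 CPM), with a median of 0.34 (matched 0.14). Pdgfb, a platelet-derived growth factor gene, was also lower in losing cells of the wild-type split (log2 -4.03). In each of these lists the called members were low in level and the medians stayed within 2-fold.

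Immune lists were also mixed, and their counts are set against 13.5% of all genes higher and 10.9% lower. Interferon response genes had 3 of 15 measured higher and 1 lower (median 0.22, and -0.20 without the cell with most counts of each gene). Ifitm3, an antiviral membrane protein gene, was at 1.807 and 47.36 CPM with 65% of the losing counts in 1 cell, Ifi204 was at 4.818 and 16.85 CPM, and Ifit2 was at 10.89 CPM in keeping and 0 in losing cells. Antigen presentation genes had 1 of 16 higher (the costimulator gene Cd80, 0.139 and 5.12 CPM) and a median of -0.04. Cytokine and chemokine genes had 0 of 10 higher and 3 lower (Ccrl2, Ccl12 and Ccl2, the last at 19.64 and 8.579 CPM), with a median of -0.02. Genes of the early response to dissociation, which mark handling, had 2 of 14 higher (Nr4a1, with 98% of the losing counts in 1 cell, and Junb, 8.062 and 40.37 CPM) and 1 lower (Egr2), with a median of 0.38 (matched 0.12, and -0.15 without the cell with most counts of each gene).

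**Figure D4:**
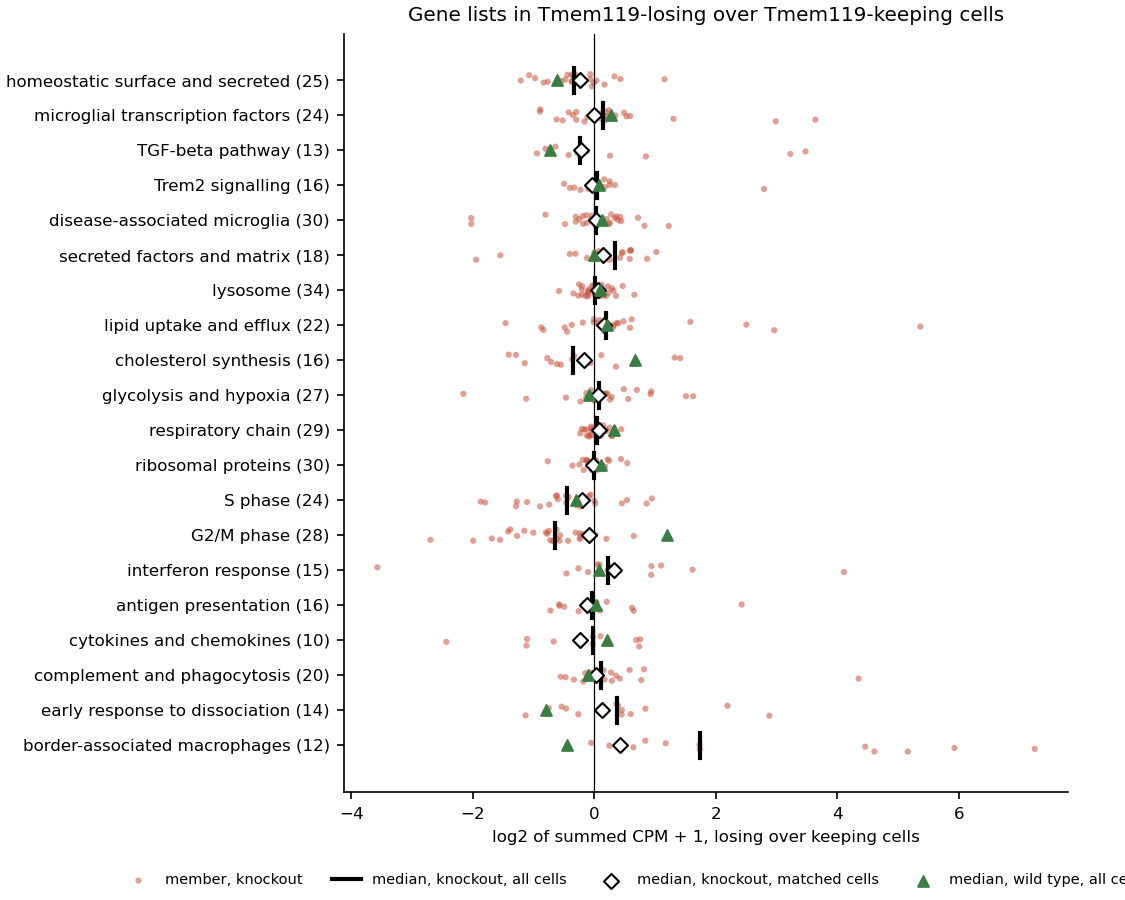
Members of 20 gene lists as the log2 of summed CPM + 1 in losing over keeping cells; points are measured members in the knockout (number in brackets), bars their medians, diamonds the medians in matched cells and triangles the medians of the same split in gated wild-type cells. Lysosomal, respiratory and ribosomal members stay near 0, the G2/M median is -0.65 in all and -0.09 in matched knockout cells and 1.19 in the wild type, and the border-associated macrophage median falls from 1.73 to 0.43 in matched cells.

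Most cell cycle genes lay lower in losing cells over all cells, and by less in matched cells. Of 28 measured G2/M genes 25 lay below 0 (48.1% of all genes), 9 were at least 2-fold lower (10.9%) and 0 higher (13.5%), with a median of -0.65. In matched cells 4 were lower, where 12% of all genes were, and the median was -0.09. Without the cells with at least 3 G2/M genes at 10 CPM, the median was 2.34 for the G2/M genes and 0.95 for the S phase genes. That filter picks cells by G2/M genes themselves, so these medians describe what it left and are not a reversal between the sets. Ccna2, the cyclin A2 gene, was at 113.4 and 42.9 CPM (log2 -1.38, matched -0.75), and Kif11, a spindle motor gene, at 59.44 and 17.75 CPM (-1.69, matched -1.21). Of 24 S phase genes 5 were lower and 0 higher (median -0.44; matched 5 lower, 1 higher, median -0.20), led by Rrm2, a ribonucleotide reductase subunit gene, at 134.1 and 35.98 CPM. Cells with at least 3 G2/M genes at 10 CPM made up 14 of 33 keeping cells (42.42%, 25.48 to 60.78) and 11 of 43 losing cells (25.58%, 13.52 to 41.17), and 11 and 9 of 30 in matched cells. The difference in these shares was not tested, since the cells come from 1 plate.

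Border-associated macrophage markers had the largest share of members past 2-fold of the lists with over 2 measured members. The highest summed marker levels per cell were those of wells C12 and G3 (17000 and 12770 CPM). Of 12 measured markers 8 were at least 2-fold higher in losing cells (background 13.5%) and 0 lower (background 10.9%), with a median of 1.73. Without C12, G3 and the keeping cell B4, which also carried such markers, the median was 0.87. In matched cells, which hold neither C12 nor G3, 5 were higher (background 13.9%), 2 were lower (background 12%) and the median was 0.43. Their summed level per cell ran from 0 to 1985 CPM in keeping cells (median 500.6) and from 5.655 to 17000 CPM in losing cells (median 740.6), and Cd163, Lyve1 and Clec10a were at 0 in the keeping set. These 3 lie above the list's median, so their bounds do not move it. Cd163, a hemoglobin scavenger receptor gene, had all of its losing counts in 1 cell. Lyve1 (151.1 CPM in losing cells, at least 1087-fold higher by the same bound), a hyaluronan receptor gene, had 85.7% in 1 cell and 0 counts in matched cells of both sets. Mrc1, the mannose receptor gene, was at 229.3 and 358.5 CPM (log2 0.64, matched 0.21, and -0.11 with a Tmem119 threshold of 1 CPM).

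F13a1, a transglutaminase gene, and Pf4, a chemokine gene, were also at least 2-fold higher in the losing set without the cells that carried border-associated macrophage markers (C12, G3 and the keeping cell B4), at log2 values of 5.20 and 2.42, against 5.93 and 4.46 with them. F13a1 was detected after thinning in 3.03% of keeping and 11.63% of losing cells, and Pf4 in 9.091% and 32.56%. The F13a1 value thus rested on few cells. B4 itself held F13a1 at 47.01 CPM, so leaving it out also lowered the keeping level of that gene. Among the 16 settings the lowest log2 was 0.74 for F13a1, under 2-fold, and 1.685 for Pf4. Cbr2 went from 1.73 over all cells to -0.81 without C12, G3 and B4. Without them the median of the homeostatic list was -0.28 and that of the disease-associated list 0.06, so neither rested on them. Among the phagocytosis genes, Timd4, a phosphatidylserine receptor gene, had 0 counts in keeping cells and 19.37 CPM in losing cells, with 81.6% of it in 1 cell. It was the 1 member of 20 measured at least 2-fold higher in that list (background 13.5%), with 0 lower (background 10.9%) and a median of 0.11. In matched cells 0 members were higher (background 13.9%) and 1 was lower (background 12%).

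**Figure D5:**
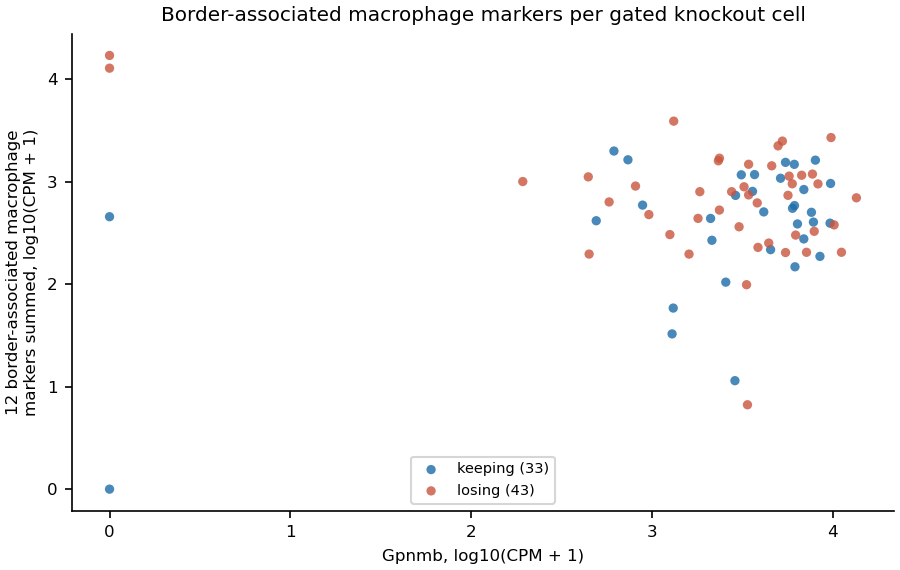
Summed level of 12 border-associated macrophage markers against Gpnmb in each gated knockout cell, both as log10(CPM + 1); blue points are keeping and red points losing cells. The 2 losing cells with 0 Gpnmb have the highest marker sums, up to 17000 CPM.

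The genes whose level per cell was most like that of Tmem119 were ranked by the Spearman coefficient across the 76 cells after both genes were regressed on log10 detected genes, among 6964 genes with a count in at least 25% of cells. This is a description, since the cells share a plate and the Tmem119 level made the sets. The 10 highest were Adrbk2 (0.49), Cst3 (0.48), Taf13 (0.44), Chd1l (0.43), Ets1 (0.43), Fam175b (0.43), Nmi (0.43), Sparc (0.42), Hivep3 (0.41) and Trim65 (0.41). Of these, Cst3 and Sparc had the largest coefficients across the 90 gated wild-type cells, 0.34 and 0.34, and Adrbk2, Chd1l, Nmi and Trim65 were below 0 there.

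The 10 genes at the other end were added after their values were seen: Lrrc59 (-0.43), Usp19, Atp6v0c, Dab2 (-0.38), Chmp2a, Stab1 (-0.36), Tomm5, Atp5k, Psmb3 and Pea15a. Dab2, an adaptor gene of endocytosis, ran from 0 to 1110 CPM in keeping cells (median 161.9) and from 0 to 1378 CPM in losing cells (median 363.4). Its summed levels were 221.2 CPM (215 to 227.6) and 457.5 CPM (449.8 to 465.4), a log2 of 1.04, of 0.77 in matched cells and of 0.94 without the cells with border-associated macrophage markers. Stab1, a scavenger receptor gene of the phagocytosis list, ran from 36 to 1916 CPM in keeping cells (median 841.1) and from 285.9 to 4142 CPM in losing cells (median 1338), with log2 0.77 and 0.68 in matched cells. Both sets overlapped for both genes. In the wild-type split their log2 values were 0.11 and 0.34, and -0.41 and 0.09 in matched cells.

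Among all 9501 measured genes, losing cells exceeded keeping cells by 2-fold or more in 1281 (13.5%) and fell short by as much in 1033 (10.9%), and 1319 (13.9%) and 1141 (12%) in matched cells. These counts have no replicate. Without the cell with most counts of each gene, taken over both sets together, the count of higher genes over all cells was 808. With the direction rule of all cells, and levels taken in matched cells, the matched counts were 1411 and 1155. Genes were named by the smallest of 3 measures of size among those detected in at least 25% of the higher set. The 12 highest in losing cells were Opa1, Slc12a9, Zc3h10, Trim25, D19Wsu162e, Pikfyve, Zfp62, Kdm3a, Cercam, Atg10, Dennd5a and Trmt1. Opa1, a gene of mitochondrial inner membrane fusion, was at 7.645 and 58.08 CPM (log2 2.77, matched 3.15) and was detected in 21.21% and 30.23% of cells. Slc12a9, a cation-chloride cotransporter family gene, was found in the most cells, with medians of 7.508 and 73.83 CPM and detection in 45.45% and 58.14%. Kdm3a, a histone demethylase gene, was at 9.591 and 73.34 CPM, and Pikfyve, a phosphoinositide kinase gene of endosomes and lysosomes, at 13.39 and 57.49 CPM. Among the 16 settings the lowest log2 was 0.91 for Opa1, 0.80 for Slc12a9, 0.43 for Kdm3a and -0.14 for Pikfyve, all under 2-fold. Cercam and Trmt1 also fell below 0 in a setting. Trim25, Zc3h10, D19Wsu162e, Zfp62, Atg10 and Dennd5a stayed past 2-fold, the lowest value being 1.07 for D19Wsu162e.

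The 12 lowest in losing cells were Fam175b, Rab3d, Srek1ip1, Ccdc45, Fam86, Txndc11, Ndel1, Chd1l, Psmf1, Zc3h7a, Ap1g1 and Gm4980. Rab3d, a small GTPase gene of regulated secretion, had medians of 10.7 CPM (0 to 378.5) in keeping and 0 (0 to 169.4) in losing cells, a log2 of -2.10, and was detected in 54.55% and 18.6% of cells. Txndc11, a thioredoxin domain gene of the endoplasmic reticulum, had medians of 15.23 CPM (0 to 507.8) and 0 (0 to 336.9), a log2 of -1.92. These were the 2 of the 12 that were also at least 2-fold lower in losing cells of the wild-type plate, at -1.96 and -1.93, where 22.7% of all 9626 measured genes were. Of the 12 highest, Cercam (1.86) and Pikfyve were also at least 2-fold higher there, where 17.4% of genes were. Fam86 belongs to a multigene family, so its counts may be divided among copies.

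The same split of the wild-type gated plate, which chose nothing here, shows how the lists behaved in other cells. There 0 of 26 measured homeostatic genes were at least 2-fold higher and 8 were lower (background 22.7%), 24 lay below 0 (background 53.2%), and the median was -0.61. In matched cells 10 of 26 were lower (background 23.1%) and the median was -0.75. P2ry12 was at 2258 and 966.6 CPM (log2 -1.22), Selplg at 607.5 and 208.5 CPM (-1.54) and Sparc at 2377 and 1438 CPM (-0.72). The disease-associated list had a median of 0.13, with 0 of 29 members past 2-fold in either direction. In matched cells 8 of 29 were at least 2-fold higher (background 21.7%), with a median of 0.48. Sparc, Selplg and P2ry12 were thus lower in losing cells on both plates. Whether the homeostatic shift differs between the genotypes was not tested, since each is 1 plate.

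Gene by gene, the splits of the 2 plates went the same way about as often as opposite ways. Of the 8740 genes measured in both, losing cells of both plates shared 233 genes past 2-fold upward, which is 22.3% of the 1044 called in the knockout and 18.7% of the 1248 called in the wild type, where 14.3% of all genes were called. Of the 1044, 324 were at least 2-fold lower in the wild type, where 21.5% of all genes were. Of the 801 genes lower in the knockout 251 (31.3%) were also lower in the wild type, where 21.5% of all genes were. Another 209 of the 801 were at least 2-fold higher in the wild type, where 14.3% of all genes were. Of 599 genes past 2-fold in both plates in all and in matched cells, 287 went the same way and 312 went opposite ways.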

How the data were processed

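Gene counts per well were deposited as 1 table of 23337 genes and 92 spike-ins for 369 wells. STAR 2.5.3a, Trim Galore 0.4.3, HTSeq and Picard are named with mm10, per the submitters' processing notes. The annotation and the strand setting are not given here, so overlapping genes cannot be told apart. Wells passing all 3 of the submitters' quality criteria were kept. Totals and detected genes equal the labels in 369 wells, 0 columns are identical, and 0 mitochondrial genes are listed. Doublets were not called.

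From the deposited counts, CPM of gene counts without spike-ins was computed per cell and per summed set with Python 3.11.15, numpy 2.4.6 and pandas 2.3.3. A gene was measured at 5 CPM in either set, and 1 CPM was added before log2. Cells were thinned to 100000 gene counts for shares detected (0 passing cells were shallower). Each keeping cell was matched to 1 losing cell on detected genes. The code was tested on simulated data. Alternatives included TMM factors (edgeR 4.0.16), median-of-ratios and spike-in scaling, other Tmem119 thresholds and CPM minimums, and leaving out kinds of cells.

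The named genes were the 12 highest and 12 lowest by the smallest of 3 measures (all cells, matched cells, mean log2 per matched cell) at 20 CPM or more in the higher set, detected in 25% of its cells, the 10 most like Tmem119, up to 4 members of each list by size, homeostatic members and a fixed set including Trem2, Gpnmb and Spp1. The 19 pathway and 9 cell type lists hold 565 symbols, of which 556 matched. Members, lists and rules were chosen with earlier results of these data known. In the other cell type lists, 1 of 2 measured monocyte markers (Itga4, 0.834 and 30.58 CPM) was higher in losing cells, 1 of 2 astrocyte markers (Slc1a3) lower, and none of 1 lymphocyte and 3 oligodendrocyte lineage markers passed 2-fold. A few list members are counted but not reported here by name. Failed wells were not used in any comparison.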

Additional observations from a re-analysis of the deposited data

Results flagged for a closer look

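Trim25, which encodes a ubiquitin ligase of antiviral signalling, was higher in losing cells of the knockout (log2 3.14) and lower in losing cells of the wild type (-1.71). Trmt1, a tRNA methyltransferase gene, likewise went from 1.75 in the knockout to -3.25 in the wild type. Both were taken up because they passed 2-fold in opposite directions on the 2 gated plates. In the knockout losing set the cell with most counts had 14.8% of the Trim25 and 22.4% of the Trmt1 counts, and in the lower keeping set 63.8% and 56.8%. The median of the G2/M genes was -0.65 in the knockout split and 1.19 in the wild-type split. Cells with at least 3 G2/M genes were 14 of 33 keeping and 11 of 43 losing cells in the knockout, and 6 of 56 and 5 of 34 in the wild type. None of these differences between plates was tested, since each plate is 1 sample.

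Among the 17 gated knockout wells that failed the quality criteria, 1 well held 5 Tmem119 counts. Those wells had between 1 and 142318 gene counts (median 399), and they entered no comparison.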

How the results depend on the processing

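The count of genes at least 2-fold higher in losing cells was 1281 over all cells and 1956 without cells with G2/M genes. It was 808 without the cell with most counts of each gene, taken over both sets together. It was 580 with a minimum of 20 CPM and 425 as a difference of mean log2 per cell with detected genes as a covariate. The count of lower genes, 1033, was 473 with a minimum of 20 CPM and 481 with the covariate. Fewer genes are tested with the higher minimum; the cause of the others was not tested. The median of the homeostatic list stayed below 0 in 16 settings, from -0.56 with the covariate to -0.08 without H3 and B6. That of the disease-associated list lay between -0.07 and 0.06, crossing 0. The TMM, median-of-ratios and spike-in scalings changed neither of the 2 counts by over 1.5 times. Among single genes, a Tmem119 threshold of 1 CPM turned Slc2a5 (-0.38), Pikfyve (-0.14), Cercam (-0.36), Trmt1 (-0.15), Gpr56 (0.37) and Mrc1 (-0.11). Without the 2 keeping cells with the most Tmem119, an alternative chosen after seeing the data, Ecscr came to 0.0005 and Crybb1 turned to 0.06. In the cells left by the filter on G2/M genes, the medians of the G2/M and S phase genes were 2.34 and 0.95. Without the top cell of each gene those of the interferon and early response genes turned to -0.20 and -0.15, and with the covariate to -0.08 and -0.06. Cbr2 turned to -4.53 in matched cells, -0.81 without cells with border-associated macrophage markers, -0.56 without the top cell and -0.53 with the covariate. No paired analysis was possible because the wells carry no replicate numbers and no test was made.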
